A study of Mus musculus with 19 samples.

Results

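Of 19 RNA sequencing libraries from the left prelimbic cortex of mice, 5 held almost no counts of Hbb-b1, a gene for the beta chain of adult haemoglobin, and these are the subject here. The rule was a level of Hbb-b1 below 1 CPM (the usual unit of a gene's count scaled to the total count of its library). It put 5 libraries in the Hbb-b1-low set and the other 14 in the Hbb-b1-high set. The highest level below the threshold was 0.195 CPM and the lowest above it was 47.5 CPM. The split was chosen from Hbb-b1 in these same libraries, so Hbb-b1 and its mirror image Hbb-bs are described below, and nothing rests on their tests. All other genes were then compared between the sets, with the 4 treatment groups adjusted for, to find whether any of them switched with Hbb-b1.

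The libraries came from mice in a study of MK-801, an NMDA receptor blocker used to model schizophrenia, and of a local brain stimulation called c-MSST. The SCZ+c-MSST mice (4 libraries) received MK-801 at 0.2 mg/kg by daily intraperitoneal injection for 2 weeks, then 1 injection of ferumoxytol iron oxide nanoparticles into the left prelimbic cortex, and a pulsed magnetic field. The SCZ mice (4 libraries) received MK-801 alone, the Control+c-MSST mice (5 libraries) saline and c-MSST, and the Control mice (6 libraries) saline alone, and tissue was taken on day 3 after surgery. The labels do not say whether mice without c-MSST had surgery, and give no strain, sex, age, litter or batch. The design text gives as many mice in each group as there are libraries, but the labels do not tie each library to 1 mouse, so p-values measure the spread between these libraries.

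Adult mouse haemoglobin joins 2 alpha chains with 2 beta chains, and the beta chains come from a pair of neighbouring genes that are copies of each other. Inbred strains carry different versions of that pair. The single haplotype, found in C57BL strains, holds Hbb-bs and Hbb-bt, and the diffuse haplotype, found in strains such as BALB/c and DBA/2, holds Hbb-b1 and Hbb-b2. In brain tissue, young red cells in the blood vessels are a main source of haemoglobin RNA.

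Some of these copies are nearly identical, and their coding sequences are shown first. Hbb-b1 and Hbb-b2 were not compared with the others in sequence here, so how alike Hbb-b1 and Hbb-bs are was not measured. In the mouse genome build GRCm38 (the same as mm10), Hbb-bs lies at chr7:103826534-103828096 and Hbb-bt at chr7:103812524-103813996, both on the minus strand and with 3 exons. Coding bases 372 to 444 of each, from the GENCODE M21 transcripts and ending with the stop codon, are given because they hold the 1 coding base at which the genes differ, in capitals.
Hbb-bs: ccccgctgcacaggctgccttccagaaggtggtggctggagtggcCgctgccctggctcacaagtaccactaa
Hbb-bt: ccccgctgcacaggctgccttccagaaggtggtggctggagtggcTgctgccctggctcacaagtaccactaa
The difference is C417T, counted from the A of the start codon with the Hbb-bs base first, and it leaves 444 coding bases 99.8% identical with a shared run of 416 bases. The GENCODE annotation of the reference chromosomes holds no Hbb-b1 or Hbb-b2. RefSeq's table for GRCm38.p6 lists both on chromosome 7, with positions of 38285 to 39684 and 53494 to 54867 that do not follow the numbering of that chromosome. The sources used here do not name the annotation behind the deposited counts.

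The alpha-globin genes are a similar pair. Hba-a1 lies at chr11:32283511-32284465 and Hba-a2 at chr11:32296489-32297298, both on the plus strand, and their 429 coding bases also differ at 1 base, C381T. Coding bases 336 to 426 of each are shown to place that base, in capitals.
Hba-a1: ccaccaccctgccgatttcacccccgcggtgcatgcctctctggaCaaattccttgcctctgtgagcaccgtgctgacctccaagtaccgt
Hba-a2: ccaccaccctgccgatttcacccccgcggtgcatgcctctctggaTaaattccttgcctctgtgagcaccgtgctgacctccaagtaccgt

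Hbb-b1 was read at 11 to 13 counts in each Hbb-b1-low library and at 2380 to 14994 counts in the Hbb-b1-high libraries. Its level was 0.194 and 0.177 CPM in replicates 2 and 3 of SCZ+c-MSST, 0.165 CPM in replicate 2 of Control+c-MSST, and 0.195 and 0.193 CPM in replicates 4 and 5 of Control. In the 14 Hbb-b1-high libraries the lowest level was 47.5 CPM, the median 81.4 CPM and the highest 199.7 CPM. Hbb-bs had the opposite order. It stood at 546.7 and 112.0 CPM in the 2 Hbb-b1-low libraries of SCZ+c-MSST, 91.4 CPM in that of Control+c-MSST and 60.1 and 105.5 CPM in those of Control. In the Hbb-b1-high libraries Hbb-bs ran from 0.853 to 8.24 CPM with a median of 3.16 CPM. The ranges of the 2 sets were far apart for both genes, and no library lay between them. The fitted log2 difference, Hbb-b1-low minus Hbb-b1-high, was -9.15 for Hbb-b1 and 5.18 for Hbb-bs.

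The share of Hbb-b1 in the counts of Hbb-b1 and Hbb-bs together was 0.0355 to 0.323% in the Hbb-b1-low libraries and 94.3 to 98.7% in the Hbb-b1-high libraries. The Wilson 95% intervals of these shares reached at most 0.578% in the first set and went down to at least 93.7% in the second, for counting error only. In FPKM, which divides by gene length and so allows levels of different genes to be compared, Hbb-b1 stood at 0.157 to 0.176 against 57.0 to 479 for Hbb-bs in the Hbb-b1-low libraries. The same 2 genes stood at 38.7 to 181 FPKM and 0.788 to 7.34 FPKM in the Hbb-b1-high libraries. The sum of the 2 genes was 60.3 to 546.9 CPM (median 105.7) in Hbb-b1-low libraries and 49.0 to 207.9 CPM (median 83.7) in Hbb-b1-high libraries, so the sums overlapped where the single genes did not.

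**Figure D1:**
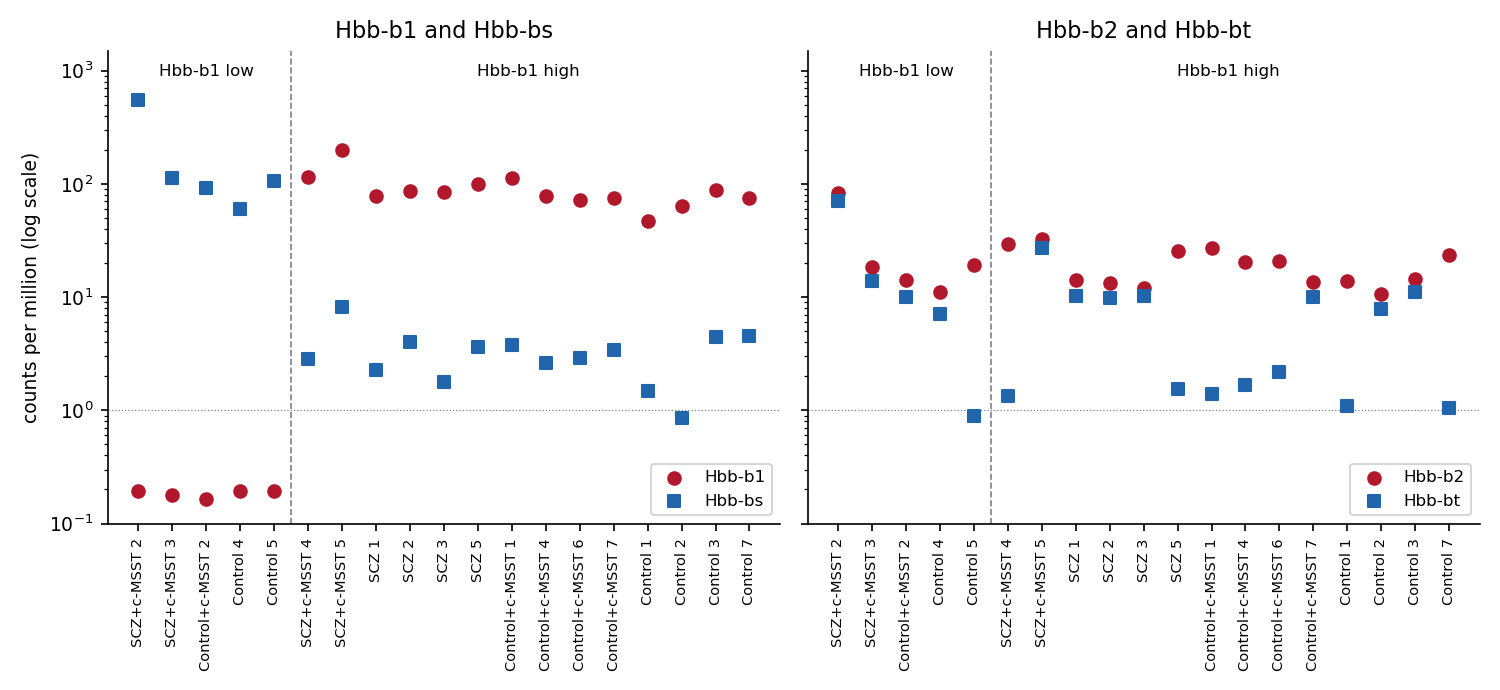
Levels of the beta-globin genes in each of the 19 libraries, in CPM on a log axis, with the Hbb-b1-low libraries left of the dashed line; the dotted line marks 1 CPM. Hbb-b1 lies at 0.165 to 0.195 CPM on the left and at 47.5 to 199.7 CPM on the right while Hbb-bs does the reverse, and Hbb-b2 is at 10.7 CPM or more everywhere.

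The second gene of each haplotype did not follow the first. Hbb-b2, the minor beta gene of the diffuse haplotype, stood at 83.4, 18.6, 14.3, 11.04 and 19.04 CPM in the Hbb-b1-low libraries, and at 10.7 to 32.4 CPM (median 17.4) in the Hbb-b1-high libraries. The sets overlapped, and the log2 difference was 0.08 (SE 0.34, adjusted p = 0.979, edgeR's quasi-likelihood test). Hbb-bt, the partner of Hbb-bs in the single haplotype, stood at 70.3, 14.0, 10.0, 7.11 and 0.884 CPM in the Hbb-b1-low libraries and at 1.05 to 27.0 CPM (median 5.02) in the Hbb-b1-high libraries (log2 difference 0.78, SE 0.86, adjusted p = 0.877, edgeR). The share of Hbb-bt in the counts of Hbb-bt and Hbb-b2 fell into 2 levels. It was 39.2 to 46.2% in 11 libraries, of which 4 were Hbb-b1-low and 7 Hbb-b1-high, and 4.29 to 9.46% in 8 libraries, of which 1 was Hbb-b1-low and 7 were Hbb-b1-high. Per length, in FPKM, the same 2 levels were 13.1 to 16.8% and 1.03 to 2.40%. Every Hbb-b1-low library carried Hbb-b2 counts, and 7 of the 14 Hbb-b1-high libraries carried Hbb-bt at the higher share. Whether the mice carried different haplotypes was not tested. The sets are called by the level of Hbb-b1 throughout.

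The alpha-globin pair was also split unevenly, and again along other lines. Hba-a1 stood at 0.0299 and 0 CPM in replicates 2 and 3 of SCZ+c-MSST, 0.0274 CPM in replicate 2 of Control+c-MSST, and 11.5 and 0 CPM in replicates 4 and 5 of Control. It was 0 to 182.4 CPM (median 9.11) in the Hbb-b1-high libraries. The log2 difference was -5.31 (SE 2.53, adjusted p = 0.598, edgeR), and for Hba-a2 it was 1.16 (SE 0.66, adjusted p = 0.686, edgeR). The share of Hba-a1 in the pair was at most 0.0294% in 11 libraries (4 Hbb-b1-low, 7 Hbb-b1-high) and 16.4 to 97.1% in 8 (1 Hbb-b1-low, 7 Hbb-b1-high). These 8 were not the 8 with little Hbb-bt: of the 8 possible combinations of the 3 pairs' states, 7 were seen. The sum of the alpha genes was 64.7 to 649.1 CPM (median 137.2) in Hbb-b1-low libraries and 83.4 to 255.9 CPM (median 114.7) in Hbb-b1-high libraries. The ratio of the summed beta-globin to the summed alpha-globin CPM was 0.827 to 1.21 in the first set and 0.682 to 1.13 in the second. The ratio of Hbb-b1 plus Hbb-bs to Hbb-b2 plus Hbb-bt was 3.33 to 5.30 against 3.25 to 4.06. Both ratios overlapped between the sets.

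**Figure D2:**
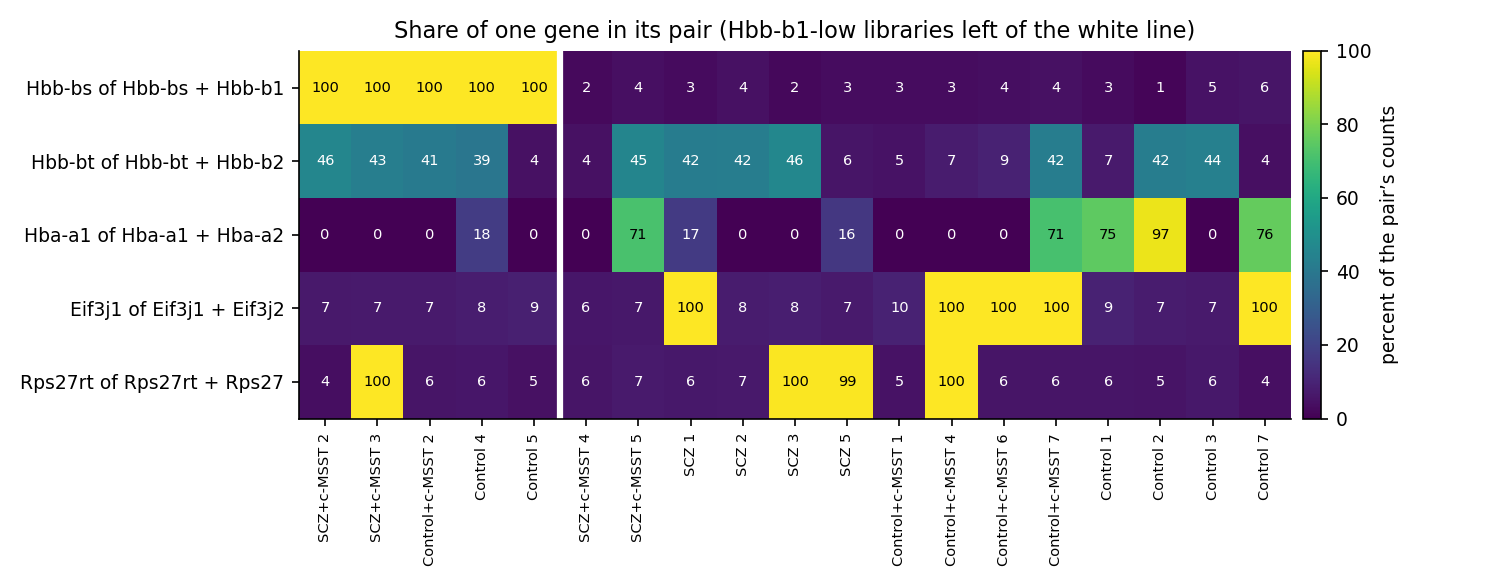
Share of the first-named gene in the summed counts of each of 5 gene pairs, in percent, for the 19 libraries, with the Hbb-b1-low libraries left of the white line. Hbb-bs takes 99.7% or more of its pair on the left and 5.66% or less on the right, while the other pairs change between low and high shares in other sets of libraries.

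The Hbb-b1-low libraries were spread over 3 of the 4 groups. They were 2 of 4 SCZ+c-MSST libraries, 0 of 4 SCZ libraries, 1 of 5 Control+c-MSST libraries and 2 of 6 Control libraries. MK-801 had been given in 2 of 5 Hbb-b1-low and 6 of 14 Hbb-b1-high libraries (Fisher's exact test, two-sided, p = 1.0, adjusted over 2 tests 1.0). c-MSST had been given in 3 of 5 and 6 of 14 (Fisher's exact test, two-sided, p = 0.628, adjusted 1.0). Since SCZ holds no Hbb-b1-low library, it adds to the estimate of the spread in the tests below but not to the difference. Library totals were 66371058 ± 7216397 counts in Hbb-b1-low libraries and 67618155 ± 7292231 counts in Hbb-b1-high libraries (SD, n = 5 and 14; exact permutation test, two-sided, p = 0.743). Genes with a count numbered 16718 ± 62.5 and 16677 ± 138 (p = 0.532, adjusted over both measures 0.743, exact permutation test). No 2 of the 171 pairs of libraries held identical counts. At these depths 3 counts, the limit that a count of 0 allows, are 0.0364 to 0.0598 CPM, for counting error only.

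Markers of cortical neurons were high in both sets. Snap25, a synaptic vesicle fusion protein, was at 1996 to 2275 CPM in Hbb-b1-low and 1738 to 2755 CPM in Hbb-b1-high libraries, and Slc17a7, the glutamate transporter of excitatory cortical neurons, at 921 to 1221 and 897 to 1441 CPM. Levels of genes typical of other tissue varied between libraries, and tissue content itself was not measured. Control replicates 2 and 3, both Hbb-b1-high, held Ttr, the transthyretin of choroid plexus, at 153.7 CPM or more, against 7.80 CPM or less in the other 17 libraries. Counts of striatal neuron genes varied widely and are given below with the sets.

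Beyond haemoglobin, no gene passed the test for a difference between the sets. Of 16417 genes tested, 2 passed at an adjusted p under 0.05 (0.0122%). These were Hbb-b1, on which the split was made, and its mirror image Hbb-bs, so nothing rests on them. With haemoglobin genes left out, 0 of 16409 passed (0.0%), while 1381 (8.42%) had an unadjusted p under 0.05, 695 of them higher (4.24%) and 686 lower (4.18%) in the Hbb-b1-low libraries. DESeq2 passed 33 genes, 17 higher and 16 lower, and limma voom passed 0. The smallest adjusted p outside haemoglobin was 0.256. The number at an unadjusted p under 0.05 was 437 without the group term, 728 among MK-801 libraries and 589 among c-MSST libraries. Among saline libraries it was 1337, and among libraries without c-MSST 1732. It ran from 847 (without Control replicate 4) to 1596 when 1 library was left out, so the share of 8.42% used below holds for the fit of all 19 libraries.

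**Figure D3:**
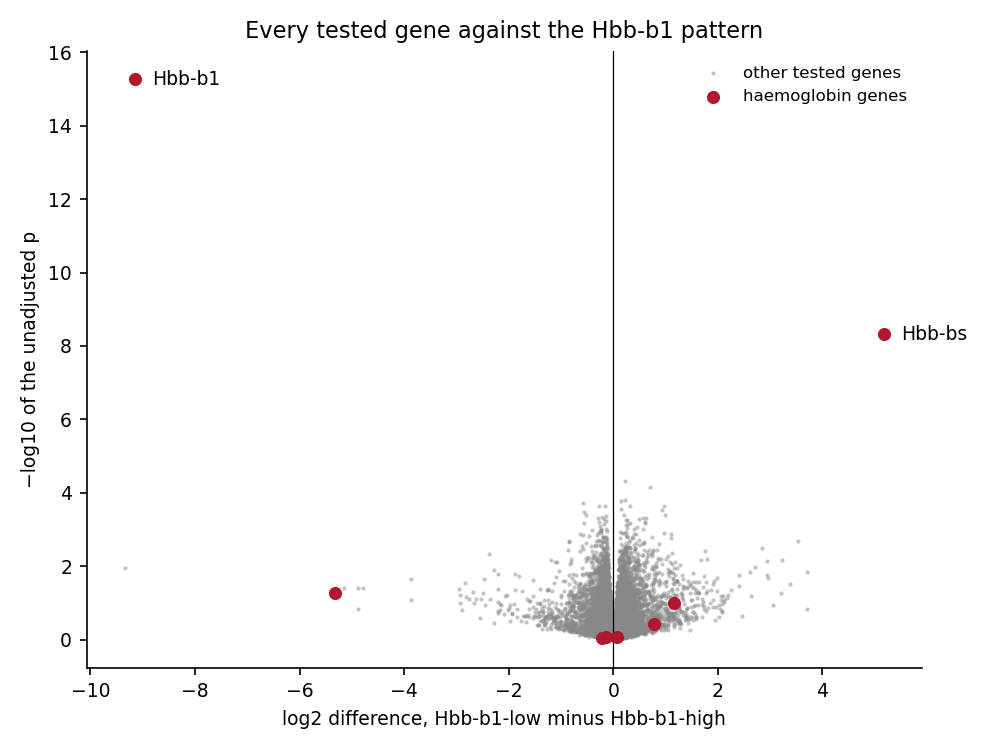
Each of the 16417 tested genes by its log2 difference (Hbb-b1-low minus Hbb-b1-high, adjusted for the 4 groups) and by −log10 of its unadjusted p; haemoglobin genes are the larger points. Hbb-b1 (-9.15) and Hbb-bs (5.18) lie above all other genes on the p axis, and the remaining haemoglobin genes lie among the other genes on it. The split was made on Hbb-b1, which Hbb-bs mirrors, so nothing rests on the place of either gene.

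Outside haemoglobin and predicted genes, those with a mean of at least 1 CPM were ranked by p, and the first 5 in either direction are given as values. None of the 10 passed in edgeR, and all 10 passed in DESeq2. Rpl31, a protein of the large ribosomal subunit, stood at 82.7, 90.7, 86.6, 92.0 and 95.1 CPM in Hbb-b1-low libraries and at 69.1 to 100.9 CPM (median 77.4) in Hbb-b1-high libraries, with a log2 difference of 0.23 (SE 0.04, adjusted p = 0.256, edgeR). Rpl13a, another protein of that subunit, was at 166.8 to 186.9 CPM and 142.7 to 192.5 CPM (0.16). Ankdd1a was at 2.77 to 3.88 CPM and 1.43 to 3.62 CPM, Rap1gap, which switches off the small GTPase Rap1, at 238.4 to 282.3 and 199.7 to 280.1 CPM, and the kinase gene Stk26 at 7.33 to 11.7 and 2.66 to 10.6 CPM. Their log2 differences were 0.70, 0.22 and 0.97. In each of these 5 genes the sets overlapped.

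Of the 5 with lower values in Hbb-b1-low libraries, 3 are genes that neurons switch on within minutes of activity. Junb, a subunit of the AP-1 transcription factor, stood at 31.8, 35.3, 23.5, 32.3 and 23.6 CPM in Hbb-b1-low libraries and at 17.4 to 52.4 CPM (median 36.3) in Hbb-b1-high libraries. Its log2 difference was -0.59 (SE 0.12, adjusted p = 0.340, edgeR). Nr4a1, a nuclear receptor, was at 41.5 to 58.8 CPM against 28.04 to 87.0 CPM (-0.56), and Dusp1, a phosphatase of MAP kinases, at 20.6 to 36.4 CPM against 13.8 to 52.2 CPM (-0.52). The protocadherin gene Pcdh1 was at 195.7 to 242.5 CPM against 206.3 to 304.4 CPM (-0.26). Cnnm1 was at 119.7 to 127.6 CPM against 126.3 to 150.1 CPM (-0.16), with overlap only between 126.3 and 127.6 CPM. None of these 10 genes came near the size of the change in Hbb-b1 or Hbb-bs.

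A gene that switches with Hbb-b1 would separate the 2 sets of libraries completely. Of 14056 genes with a mean of at least 1 CPM, 3 did so (0.0213%), and 2 of them, Hbb-b1 and Hbb-bs, also differed by 4-fold or more between the medians (0.0142%). The third, named because it was the only other, was Eepd1, a gene with an endonuclease domain. It stood at 26.9, 27.5, 26.5, 26.8 and 29.6 CPM in Hbb-b1-low libraries and at 21.8 to 26.1 CPM (median 23.9) in Hbb-b1-high libraries. Its sets were only 0.02 apart on the log2 scale, its log2 difference was 0.20 (SE 0.06), and its adjusted p was 0.414 (edgeR). Outside haemoglobin, no gene that separated the sets differed by 4-fold.

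Large differences between medians did occur, always with overlap. Outside haemoglobin 13 of 14050 genes differed by 4-fold or more between the medians of the sets, and 0 of the 13 separated them. An example, chosen after its values were seen, shows the overlap. Zfp281, a zinc finger transcription factor, was at 0.135, 61.7, 0.151, 51.7 and 0.0643 CPM in the Hbb-b1-low libraries, and at 0.0798 to 71.5 CPM (median 62.2) in Hbb-b1-high libraries. This gene has 2 levels, and both were found in each set.

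The neighbours of the beta-globin genes on chromosome 7 were examined next, for a difference that extended along the chromosome. The 20 nearest tested genes on each side, haemoglobin genes left out, lie at distances of -1811 kb to 1654 kb from Hbb-bs and hold 15 olfactory receptor genes and 10 genes of the Trim family. None of the 40 passed (0.0% of all 16409 genes passed) and 0 had an unadjusted p under 0.05, against 8.42% of all genes. The smallest adjusted p was 0.692. The median log2 difference was 0.05, with 25 higher and 15 lower, beside -0.00 over all tested genes. Among the 23 with a mean of at least 1 CPM the differences ran from -0.20 to 0.37. Stim1, the calcium sensor of the endoplasmic reticulum, was at 100.9 to 110.7 CPM in Hbb-b1-low and 88.6 to 111.9 CPM in Hbb-b1-high libraries (log2 difference 0.05). Fam160a2 had a log2 difference of -0.11. Of the Trim genes, chosen after their values were seen, Trim30a was at 3.26 to 10.5 and 1.95 to 6.37 CPM (0.32), and Trim30d at 1.42 to 3.03 and 0.858 to 2.97 CPM (0.37). Over the whole of chromosome 7, 7.37% of 1275 tested genes had an unadjusted p under 0.05, within the range of 6.85 to 11.4% over all chromosomes.

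**Figure D4:**
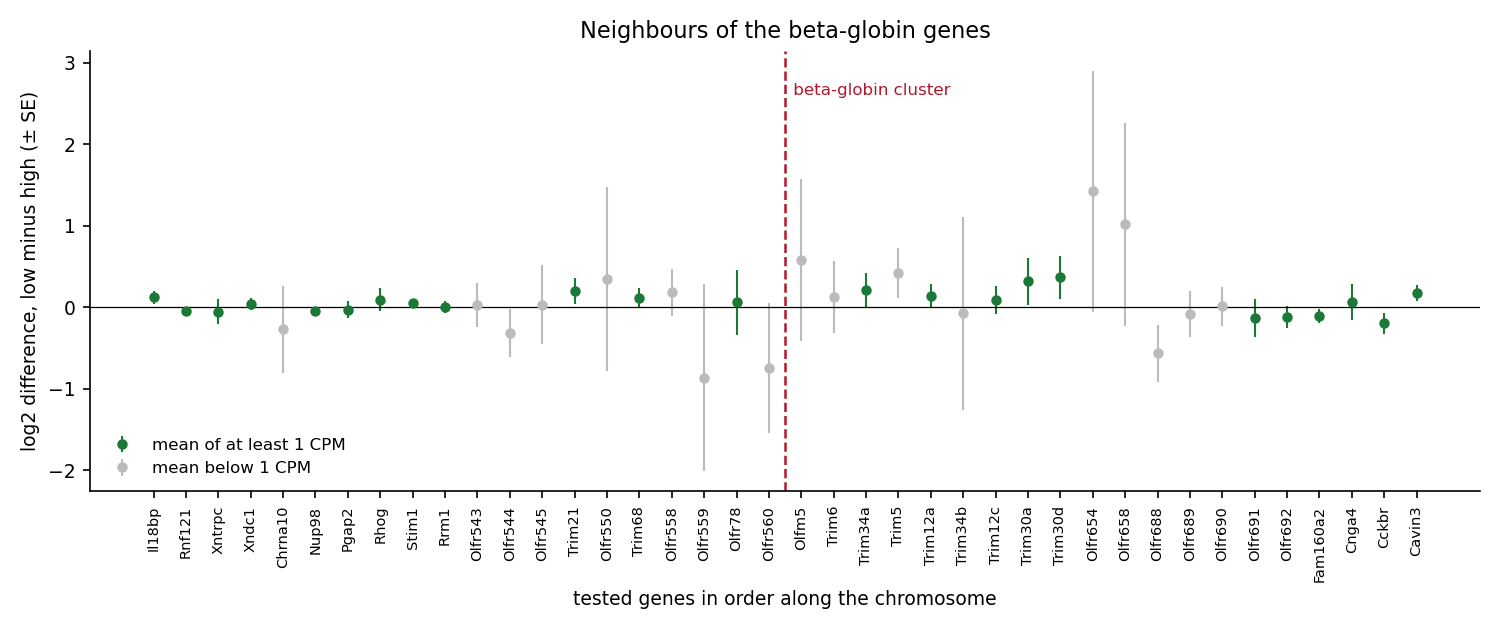
Log2 difference (Hbb-b1-low minus Hbb-b1-high) with its standard error for the 20 tested genes on each side of the beta-globin genes, in chromosome order. Genes with a mean of at least 1 CPM lie between -0.20 and 0.37, and the larger values belong to genes with a mean below 1 CPM.

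Genes known to differ between inbred strains were examined as a list. Of the 26 tested, 0 passed, 16 were higher and 10 lower in Hbb-b1-low libraries, and the median log2 difference was 0.06. Cyfip2, the one with the highest mean level, had a log2 difference of -0.07. Others are named after their values were seen. Nnt, the mitochondrial transhydrogenase, of which C57BL/6J mice lack a block of exons, was at 26.7 to 42.2 CPM in Hbb-b1-low and 24.2 to 38.3 CPM in Hbb-b1-high libraries. Reads from its other exons can be counted in either form, so this level does not tell the strains apart. Wdfy1 was at 50.8 to 57.4 and 50.3 to 59.1 CPM, and Glo1, an enzyme of methylglyoxal removal whose copy number varies between strains, at 27.5 to 32.6 and 22.7 to 33.6 CPM. Of 24 tested genes of the major histocompatibility complex and antigen processing, 0 passed, and the median was 0.16 with 18 higher. H2-D1, a class I heavy chain, was at 34.4 to 71.8 and 22.9 to 74.2 CPM, and B2m, the light chain of class I molecules, had a log2 difference of 0.02. H2-Ea-ps had a count of 0 in all 19 libraries. The median of this list was -0.21 among MK-801 libraries alone and -0.11 among c-MSST libraries alone. The Y-linked gene Ddx3y was counted in every library, at 44.0 to 53.9 and 42.1 to 55.7 CPM.

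Blood content was compared by genes other than haemoglobin. Of 18 genes of red cells and their precursors 9 were tested and 0 passed, with 5 higher, 4 lower and a median log2 difference of 0.02. Fech, the last enzyme of haem synthesis, had a log2 difference of -0.06 and Bpgm 0.02, the 2 with the highest mean level. Alas2, the first enzyme of haem synthesis in red cells, was at 15.04 to 31.9 CPM (median 15.8) in Hbb-b1-low and 11.5 to 18.4 CPM (median 14.8) in Hbb-b1-high libraries. Slc4a1, the anion exchanger of the red cell membrane, was at 0.110 to 1.78 and 0.0416 to 0.565 CPM. The highest levels of Hbb-bs, Hbb-b2, Hbb-bt and Hba-a2 were all in SCZ+c-MSST replicate 2. The log2 sum of the alpha-globin genes added to the model left 0 genes called and 1402 with an unadjusted p under 0.05. Of 16 haem and iron genes 0 passed, with 11 higher and a median of 0.04. Fth1, the ferritin heavy chain that stores iron, had medians of 743.5 CPM in Hbb-b1-low and 786.7 CPM in Hbb-b1-high libraries. With the groups adjusted for, the log2 difference of Fth1 was 0.03, and that of Trf was 0.34 (adjusted p = 0.557, edgeR). Of 15 tested leukocyte genes 14 were higher, with a median of 0.25 and 0 passing. That median was 0.08 with the alpha-globin sum in the model, -0.05 among c-MSST libraries and 0.82 among libraries without c-MSST. With 1 library left out it ran from 0.0028 (without Control replicate 5) to 0.42 (without SCZ+c-MSST replicate 5). The 8 tested platelet genes had a median of 0.04. Fewer cells of a type and less RNA per cell cannot be told apart in these bulk samples.

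The lists with the medians farthest from 0 were those of striatal neurons, immediate early genes and choroid plexus, and none of their members passed. All 12 striatal genes were higher in the Hbb-b1-low libraries once groups were adjusted for, with a median log2 difference of 1.2 and 9 of 12 at an unadjusted p under 0.05, beside 49.6% of all genes higher and 8.42% at that p. Their summed level was 1616, 3014, 1481, 2375 and 2023 CPM in the Hbb-b1-low libraries and 248.4 to 2632 CPM (median 1232) in the Hbb-b1-high libraries. Pde10a, the phosphodiesterase of striatal neurons, was at 419.0 to 1009 and 98.5 to 672.4 CPM, and Ppp1r1b, which encodes the dopamine signalling protein DARPP-32, at 276.8 to 542.2 and 39.98 to 549.8 CPM. Within the groups the summed level overlapped between the sets in SCZ+c-MSST (1616 and 3014 CPM against 1223 and 2053 CPM) and in Control+c-MSST (1481 CPM against 326.1 to 1911 CPM). It did not overlap in Control (2023 and 2375 CPM against 248.4 to 1241 CPM). With scores of the striatal, septal and choroid plexus lists in the model 0 genes outside haemoglobin passed. The striatal median was then 0.05, which follows from the score being made of the same genes and bears on no cause. The median was 0.89 without Control replicates 2 and 3, 0.42 among MK-801 libraries alone and 2.01 among libraries without c-MSST.

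Of 19 immediate early genes, the class to which Junb, Nr4a1 and Dusp1 belong, 18 were lower in the Hbb-b1-low libraries. Their median log2 difference was -0.49, and 13 had an unadjusted p under 0.05. Beside them, 8272 of all 16409 tested genes were lower and 8.42% had that p. Fos was at 9.21 to 20.8 CPM in Hbb-b1-low and 6.01 to 28.2 CPM in Hbb-b1-high libraries (-0.85, adjusted p = 0.394, edgeR), and Egr1 at 159.2 to 231.4 and 150.7 to 322.0 CPM (-0.42). The summed level of the list was 984.5 and 990.9 CPM against 1133 and 1157 CPM in SCZ+c-MSST, and 846.0 CPM against 1080 to 1307 CPM in Control+c-MSST. It was 871.1 and 1163 CPM against 1131 to 1430 CPM in Control, where the sets overlapped. SCZ, with Hbb-b1-high libraries alone, had 778.9 to 907.1 CPM. The median with the tissue scores in the model was -0.47. It was -0.30 without the group term, -0.26 among MK-801 libraries and -0.57 among saline libraries.

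**Figure D5:**
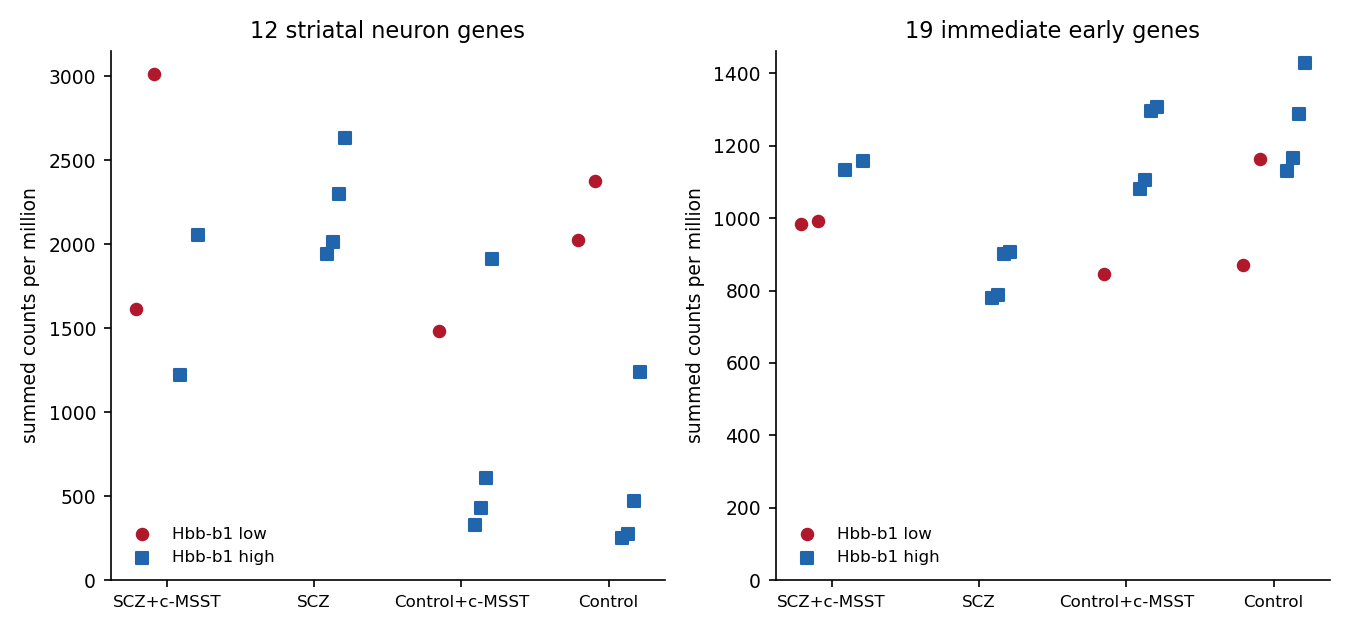
Summed CPM of 12 striatal neuron genes and 19 immediate early genes in each library, by group, with Hbb-b1-low libraries left of Hbb-b1-high libraries in a group. Striatal genes overlap in SCZ+c-MSST and Control+c-MSST and separate in Control, and immediate early genes are lower in Hbb-b1-low libraries of SCZ+c-MSST and Control+c-MSST and overlap in Control.

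Of the other lists, all 16 myelin genes were higher (median 0.26), 19 of 20 interferon genes were higher (0.24) and 9 of 12 choroid plexus genes were lower (-0.51). Without Control replicates 2 and 3 the choroid plexus median was 0.76 and the interferon median 0.07. The interferon median was -0.40 among MK-801 libraries and -0.21 among c-MSST libraries, and the myelin median was -0.11 with the tissue scores in the model. The 14 genes of cortical neurons had a median of -0.08, and those of endothelium -0.01, mural cells -0.05, fibroblasts -0.08, microglia 0.06, astrocytes -0.02 and hypoxia 0.03. The septal list stood at 0.32 with 6 of 7 higher, but at -0.26 among MK-801 libraries, -0.12 among c-MSST libraries, 0.08 without the group term and 1.08 among libraries without c-MSST. Leaving out 1 library gave 0.16 (Control replicate 5) to 0.66 (Control replicate 2) for the septal list. The interferon median was -0.09 without Control replicate 4, and the choroid plexus median was 0.25 without Control replicate 2 and -1.25 without Control+c-MSST replicate 2. No member of any of these lists passed.

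Genes with 2 well separated levels were then sought along any division of the libraries. A gene was counted as on-off if its log2(CPM + 0.05) left a gap of at least 2 between neighbouring libraries, with at least 2 libraries on each side. This held for 61 of 14056 genes (0.434%), of which 58 were not haemoglobin genes and 3 were, Hba-a1 beside Hbb-b1 and Hbb-bs. The 61 genes divided the libraries in 49 different ways, 44 of them seen in 1 gene each. The split of Hbb-b1 was used by 2 genes, Hbb-b1 and Hbb-bs, and by 0 others. The closest of the others put 14 of 19 libraries on the same side, in 4 genes. Of the 58 genes, 4 had an unadjusted p under 0.05 for the Hbb-b1 pattern, beside 8.42% of all 16409 tested genes outside haemoglobin. The 58 include Jrkl, which was not tested.

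The clearest of these genes, chosen here after their values were seen, were almost absent from some libraries and well counted in others. Kbtbd7, a subunit of a ubiquitin ligase with a single exon, had a count of 0 in 6 libraries (1 of them Hbb-b1-low) and 33.1 to 52.7 CPM in 13. Zfp281 was at 0.151 CPM or less in 6 libraries (3 of them Hbb-b1-low) and 44.4 to 71.5 CPM in 13. A single exon was annotated for 13 of 54 on-off genes outside haemoglobin that had a GENCODE entry (24.1%), and for 371 of 13837 other genes (2.68%). Overlap with another gene was annotated for 27.8% and 22.02%.

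Like Hbb-b1 and Hbb-bs, 3 further pairs of genes switched in opposite directions, each pair along 1 division of the libraries. Rps27 and Rps27rt encode a protein of the small ribosomal subunit, on chromosomes 3 and 9, and their 255 coding bases are identical, so the sequence is given once and carries no capitals.
Rps27 and Rps27rt: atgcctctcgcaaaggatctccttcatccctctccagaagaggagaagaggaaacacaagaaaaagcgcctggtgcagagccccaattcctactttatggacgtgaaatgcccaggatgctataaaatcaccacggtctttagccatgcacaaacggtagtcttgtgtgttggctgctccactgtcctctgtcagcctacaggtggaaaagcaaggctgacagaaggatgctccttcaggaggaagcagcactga
Rps27rt held 99.3 to 99.7% of the pair's counts in 4 libraries (1 Hbb-b1-low, 3 Hbb-b1-high) and 3.84 to 7.16% in 15. Rps27rt was at 43.8 to 59.8 CPM in the 4 libraries and 1.70 to 3.85 CPM in the 15, and Rps27 at 0.134 to 0.388 CPM and 33.0 to 53.4 CPM. Eif3j1 and Eif3j2, which encode a subunit of the translation initiation factor eIF3, did the same. Eif3j1 held all of the counts in 5 libraries, each Hbb-b1-high, where Eif3j2 had a count of 0, and 6.03 to 9.60% in the other 14. Setdb2, a gene of the histone methyltransferase family, and the predicted gene Gm45935 formed the third pair. In Control+c-MSST replicate 7 and Control replicate 1, both Hbb-b1-high, Setdb2 was at 0 to 0.259 CPM and Gm45935 at 5.78 to 6.08 CPM. In the other 17 libraries Setdb2 was at 4.92 to 8.49 CPM and Gm45935 at 0 to 1.10 CPM.

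The sums of the Rps27 and Eif3j pairs varied less than their members. The coefficient of variation over the 19 libraries was 13.7% for Rps27 plus Rps27rt, against 54.5% and 160.4% for the genes alone, and 16.2% for Eif3j1 plus Eif3j2, against 118.6% and 62.4%. The Eif3j sum still differed between the sides of its split. It was 20.6 to 23.1 CPM in the 5 libraries without Eif3j2 counts and 26.5 to 36.4 CPM in the other 14, with no overlap. For Hbb-b1 plus Hbb-bs it was 92.4%, against 76.3% for Hbb-b1 and 248.8% for Hbb-bs. That value rested on SCZ+c-MSST replicate 2: without it, a choice made after seeing the data, the sum varied by 36.3%, against 70.5% for Hbb-b1 and 170.1% for Hbb-bs. How alike Eif3j1 and Eif3j2 are in sequence was not measured here, nor was it for Setdb2 and Gm45935. A switch in which gene of a pair is transcribed and a switch in which gene the reads are assigned to cannot be told apart in these files. For Hbb-b1 and Hbb-bs, a difference in haplotype cannot be told apart from these either.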

How the data were processed

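Total RNA of left prelimbic cortex was sequenced in 19 libraries (TruSeq Stranded Total RNA kit, per the labels' protocols). The submitters' processing notes name fastp 0.19.5, STAR 2.7.7a, Picard 2.18.29, StringTie 1.3.5 and the build mm10; their order, the annotation, the use of strand and the treatment of reads that fit several genes are not given. The estimated counts per gene were deposited as a matrix by the authors; they are whole numbers, so none was rounded. The FPKM values were deposited by the authors for the same genes, and 11 gene names turned into dates were restored.

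The matrix held 20938 genes, of which 2327 had no count and 16417 passed edgeR's filter on low counts. Library totals ran from 50140626 to 82416746 counts. Libraries were split at 1 CPM of Hbb-b1, and edgeR 4.0.16 (R 4.3.3, quasi-likelihood test, TMM scaling, all 19 libraries) was fitted with the split and the 4 groups as terms, with Benjamini-Hochberg adjustment over all tested genes. DESeq2 1.42.0 and limma 3.58.1 were alternatives. Single values were tested with SciPy 1.17.1. The steps were tested on simulated data. Replicate numbers come from the sample titles, and samples were grouped by title. The genes named are all haemoglobin genes that were counted, the 5 smallest p in each direction, genes that separate the sets, and the 2 members of a list with the highest mean level; any other was chosen after its values were seen. The split, its genes and the gene lists were chosen with earlier results of these data known. Some genes that this rule names are not reported here.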

Additional observations from a re-analysis of the deposited data

Results flagged for a closer look

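Single libraries stood apart from the rest of their group or set in 15 of 105 groups of values examined with Dixon's test. By chance that test marks about 1 in 20, but the 15 cannot be read against this rate. They include a value fixed by the split, a gene chosen for its difference between the sets, and sums that repeat their members. SCZ+c-MSST replicate 2 was far above the other Hbb-b1-low libraries in Hbb-bs (546.7 CPM, others 60.1 to 112.0), Hbb-b2 (83.4 CPM, others at most 19.04), Hbb-bt (70.3 CPM, others 0.884 to 13.98) and Hba-a2 (649.1 CPM, others 53.2 to 174.9). The sums followed, with 546.9 CPM for Hbb-b1 plus Hbb-bs (others 60.3 to 112.2) and 649.1 CPM for the alpha genes (others 64.7 to 174.9). Hba-a1 was high in 1 Hbb-b1-low library, Control replicate 4 (11.5 CPM, others at most 0.0299).

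Within the treatment groups, Hbb-bs was 91.4 CPM in the Hbb-b1-low library of Control+c-MSST (others 2.63 to 3.75), which the split itself fixes, as that group holds 1 such library, so it is no separate sign and stands outside any reading against chance. Hba-a1 was 182.4 CPM in replicate 5 of SCZ+c-MSST (others at most 0.0299) and 69.6 CPM in replicate 7 of Control+c-MSST (others at most 0.0274). In SCZ, replicate 5 had more Hbb-b2 (25.5 CPM, others 11.99 to 14.1) and less Hbb-bt (1.54 CPM, others 9.77 to 10.3), and replicate 1 had less Junb (17.4 CPM, others 26.2 to 27.9). Ankdd1a was 2.77 CPM in replicate 2 of Control+c-MSST (others 1.98 to 2.11) and 3.88 CPM in SCZ+c-MSST replicate 3 among Hbb-b1-low libraries (others 2.77 to 3.05). The first of these is no separate sign. Ankdd1a was named for its difference between the sets, and replicate 2 is the only Hbb-b1-low library of Control+c-MSST.

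The difference between the sets was itself compared between groups with an interaction term in edgeR, and 1 of 16409 genes passed, Pja2, which encodes a ubiquitin ligase. Its log2 difference between the sets, SCZ+c-MSST minus Control, was -0.69 (adjusted p = 0.0401, edgeR). In Control it stood at 758 and 800 CPM in Hbb-b1-low and 500 to 531 CPM in Hbb-b1-high libraries, and in SCZ+c-MSST at 699 and 771 CPM against 777 and 797 CPM. In Control+c-MSST it was 752 CPM against 731 to 754 CPM, and in SCZ, all Hbb-b1-high, 714 to 806 CPM. Only the Hbb-b1-high libraries of Control thus stood low, and the cause was not tested.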

How the results depend on the processing

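The count of 0 genes outside haemoglobin held under other scalings, filters, voom, FPKM, covariates and thresholds. It was 33 in DESeq2, 2 in saline libraries, 4 in MK-801 libraries, 2 in c-MSST libraries and 17 in libraries without c-MSST, and 0 to 5 when 1 library was left out, with 5 without Control+c-MSST replicate 1 and 1 without SCZ+c-MSST replicate 2 or SCZ replicate 2. Replicate numbers did not pair the samples (median correlation of deviations -0.0118 over 19 same-numbered pairs, 1 above 0.1), and with the replicate number as a block 67 genes passed and 1 list member; DESeq2 passed 5 list members. The cause was not tested. Genes outside haemoglobin that separate the sets, 1 as reported, numbered 1 to 5 with 1 library left out, from 2 to 5 without any Hbb-b1-low library, Control+c-MSST replicate 1 or SCZ replicate 3. On-off genes outside haemoglobin, 58 as reported, were 204 with a gap of 1, 30 with a gap of 3, 37 with a pseudocount of 0.5 CPM and 31 in FPKM. Fisher's exact p for MK-801 was 1.0 in every leave-out, the sign of the share difference turning in 9 of them. The exact permutation p for total counts ran from 0.420 to 0.978 with 1 library left out, and the difference turned without Control replicate 4 (p = 0.736). A split at 0.1 CPM gave no value, since no library lay below it. Depth limits single-gene levels to about the 3-count limit given in the text.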
